A study of Mus musculus with 12 samples.

Results

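Monocarboxylate transporters carry lactate, pyruvate and ketone bodies across membranes. Described here are Slc5a8, Slc5a12, Slc16a1, Slc16a3, Slc16a7 and Bsg, 6 of the 41388 genes counted in every library. They were taken as a named list and matched from Ensembl identifiers to mouse symbols, and all 6 were found. The list was drawn up with the CPM (the gene's count scaled to the library's total count) by fraction and genotype in view. Slc5a8 heads it, and which of its values led to that is not given in the sources used here. The values of Slc5a8 are therefore given as a description, with no p-value. The other members are relatives of Slc5a8 by substrate or are needed for such transport, and their p-values come from fits over all genes.

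Brain cells of 8 mice on a C57BL\6 background were profiled in 12 RNA-seq libraries. All animals were labelled with floxed Bmal1 alleles (Bmal fl/fl) and the ALDH1L1-CreERT2 line, and all were gavaged with tamoxifen at 2 months of age (2 mg daily, 5 days), so the controls share the floxed alleles and the drug. Wild-type (WT) animals were Cre-negative, and knockout (aKO) animals were Cre-positive, with a tamoxifen-inducible Cre under control of the astrocyte gene Aldh1l1. The mice lived in 12 h of light and 12 h of dark. At 7 months, cells held by magnetic beads against the surface epitope ACSA-2 gave the isolated astrocytes, and the remaining brain cells gave the flowthrough. Astrocytes came from WT animals 201, 202 and 265 and aKO animals 203, 205, 208, 221 and 222. Flowthrough came from WT 201 and 202 and aKO 203 and 205, so 4 brains gave both fractions. The title of astrocyte library 202 says wild type and its genotype field says knockout. Here it stands with WT. The edgeR comparisons by genotype and fraction were recomputed without it and with it alone moved to aKO, while flowthrough 202 stayed WT. Fits limited to the 4 brains with both fractions, DESeq2 fits, group means, shares and marker sums were not recomputed in these ways. The series' design asks how astrocytes without BMAL1, a transcription factor of the circadian clock, differ from wild-type astrocytes.

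Total counts ran from 21816637 to 62655238 in astrocyte libraries and from 33019572 to 53868165 in flowthrough. A single read therefore equals 0.0160 to 0.0458 CPM in astrocytes. Mitochondrially encoded genes took 11.1% to 36.5% of the counts in astrocytes and 4.81% to 12.9% in flowthrough. The choroid plexus gene Ttr took 1.197% to 17.0% and 8.17% to 32.1%. The targeted gene, Arntl (the official symbol of Bmal1), lay between 2.13 and 6.80 CPM in WT astrocytes and between 5.05 and 25.0 CPM in aKO astrocytes. Counts are per whole gene, with the floxed exons not counted apart, so this total checks neither the deletion nor the labels. Why the aKO values reach higher was not tested. Xist, transcribed in females, had 2044 counts in aKO astrocytes 221 and 972 in aKO astrocytes 222, and at most 46 in the other 10 libraries. The summed CPM of 12 astrocyte markers was 3105 to 14791 in astrocyte libraries and 247 to 5201 in flowthrough. The astrocyte libraries also held oligodendrocyte markers (9 genes) at a summed 3555 to 22792 CPM. These are bulk samples, in which fewer cells of a type and less RNA per cell cannot be told apart.

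In brain, astrocytes are known to release lactate made by glycolysis, and neurons and oligodendrocytes take it up or pass it on. The proton-linked carriers of the SLC16 family do most of this work. MCT1 (Slc16a1) is found in endothelium, oligodendrocytes and astrocytes, MCT2 (Slc16a7) is the high-affinity carrier of neurons, and MCT4 (Slc16a3) is an exporter typical of glycolytic cells. Basigin (Bsg, CD147) is the membrane glycoprotein that brings MCT1 and MCT4 to the cell surface. SMCT1 (Slc5a8) and SMCT2 (Slc5a12) belong to another family and draw monocarboxylates into the cell with sodium, best known from kidney and gut.

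Slc5a8, the sodium-coupled uptake carrier, had few reads in WT astrocytes and more in aKO astrocytes. It stood at 1.74, 0.400 and 0.442 CPM in WT astrocytes 201, 202 and 265. In aKO astrocytes 203, 205, 208, 221 and 222 it stood at 11.5, 11.0, 4.57, 6.45 and 2.52 CPM. Every aKO library lay above every WT library, and the values spread more than 4-fold among the aKO animals themselves. The WT mean was 0.860 ± 0.762 CPM (SD, n = 3). The aKO mean was 7.20 ± 3.94 CPM (SD, n = 5). In reads, the WT libraries held 109, 15 and 11 and the aKO libraries 250, 360, 159, 215 and 58. The fitted log2 fold change was 2.93 (SE 0.57). Of the 18950 genes tested in astrocytes, 1.07% had all aKO libraries above all WT libraries, and since Slc5a8 was chosen from these libraries nothing is read from its place among them.

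Flowthrough was measured in 2 of the 5 aKO animals and 2 of the 3 WT animals, and Slc5a8 was low in all 4 libraries. Flowthrough held 0.337 and 0.706 CPM in WT 201 and 202 and 0.594 and 0.333 CPM in aKO 203 and 205. These 4 values overlapped between genotypes and lay at the level of WT astrocytes 202 and 265. Within the same brain, the astrocyte library exceeded the flowthrough 19.3-fold in aKO 203 and 33.0-fold in aKO 205. The ratio was 5.16 in WT 201 and 0.567 in WT 202. The genotype difference in astrocytes exceeded that in flowthrough by 2.78 (SE 0.95) on the log2 scale, given as a description. The sign of the flowthrough difference itself, 0.14 (SE 0.76), was not stable, as given with the other settings.

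**Figure D1:**
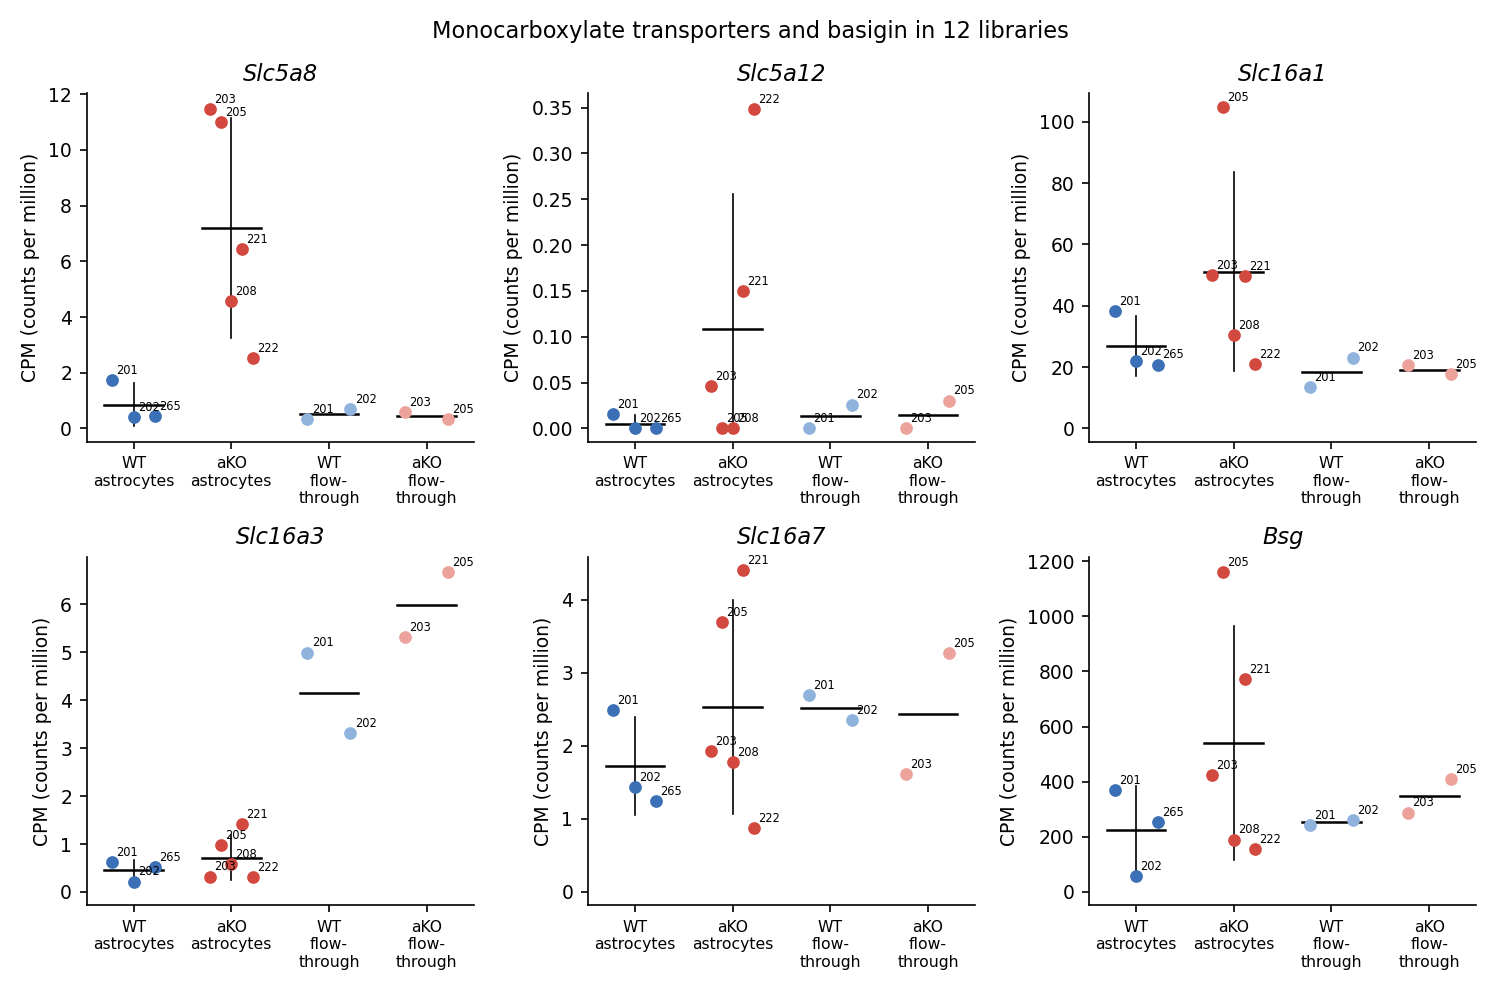
CPM of the 6 genes (vertical axes, linear, 1 scale per gene) in WT and aKO astrocytes and WT and aKO flowthrough. Points are libraries labelled with the animal number, horizontal lines are means and vertical lines 1 SD where n is above 2, stopped at 0. Slc5a8 lies between 2.52 and 11.5 CPM in aKO astrocytes and at or below 1.74 CPM elsewhere, and Slc16a3 is highest in the 4 flowthrough libraries.

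BMAL1 with its partner CLOCK binds the E-box CACGTG, so the bases upstream of the start sites were searched for it. RefSeq sequences (GRCm38.p6) were found for 3 of the 6 members, Slc5a8, Slc16a1 and Slc16a3, each read here over the 250 bases before the start site, 5′ to 3′ on the plus strand. The sequences are shown because the genotype difference concerns a factor with a known motif and because Slc16a3 differs between fractions. Capitals mark any E-box (CANNTG) in Slc5a8, CACGTG in Slc16a1 and ACGTG, a form of the core of the hypoxia response element, in Slc16a3. The other form of that core, GCGTG, was not searched. The RefSeq start of Slc16a3 lies inside the gene's annotated span, so its window precedes an alternative start and not the gene's outermost end. The windows are chr10:88885742-88885991 for Slc5a8, chr3:104638414-104638663 for Slc16a1 and chr11:120948817-120949066 for Slc16a3.
Slc5a8: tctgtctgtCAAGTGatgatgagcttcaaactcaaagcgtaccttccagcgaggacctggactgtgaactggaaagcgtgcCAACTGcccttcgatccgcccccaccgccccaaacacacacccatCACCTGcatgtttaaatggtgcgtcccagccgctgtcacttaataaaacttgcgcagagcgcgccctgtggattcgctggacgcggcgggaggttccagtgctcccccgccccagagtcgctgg
Slc16a1: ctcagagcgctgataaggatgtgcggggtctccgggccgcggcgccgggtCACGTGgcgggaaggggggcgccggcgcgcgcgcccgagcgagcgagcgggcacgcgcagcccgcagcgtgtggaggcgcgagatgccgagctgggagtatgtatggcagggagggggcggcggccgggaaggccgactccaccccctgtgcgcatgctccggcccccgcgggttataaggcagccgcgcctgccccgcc
Slc16a3: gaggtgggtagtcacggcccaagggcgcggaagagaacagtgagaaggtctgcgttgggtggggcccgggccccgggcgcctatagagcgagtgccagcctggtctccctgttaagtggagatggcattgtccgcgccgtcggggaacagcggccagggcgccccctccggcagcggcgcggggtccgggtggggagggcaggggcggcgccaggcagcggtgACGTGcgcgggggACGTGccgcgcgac
On both strands, the Slc5a8 window held 3 matches to CANNTG, at 241, 169 and 124 bases before the start, and 0 to CACGTG or ACGTG. The Slc16a1 window held 1 CACGTG, at 200 bases before the start, and its 2 matches to ACGTG lie inside that E-box. The Slc16a3 window held 0 matches to CACGTG and 2 to ACGTG, at 27 and 14 bases before the start. Every CACGTG is also a CANNTG and holds ACGTG on each strand. Among all 32851 windows of this length, 6.02% held CACGTG, 66.2% CANNTG and 16.6% ACGTG. A match is a description of these letters only.

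In GRCm38, Slc5a8 lies on the plus strand of chromosome 10 from 88885992 to 88929505, and its counts cover 15 exon blocks with 5321 bases. Slc16a1 lies on chromosome 3 from 104638668 to 104658462 and Slc16a3 on chromosome 11 from 120948480 to 120960868. Bsg lies on chromosome 10 from 79704491 to 79711969 and Slc5a12 on chromosome 2 from 110597298 to 110647779. Slc16a7 lies on the minus strand of chromosome 10 from 125226464 to 125328963. Slc5a8, Slc5a12, Slc16a3 and Bsg overlap no other gene in GENCODE vM21. Slc16a1 overlaps 2 genes annotated inside its introns, and Slc16a7 overlaps the antisense gene Gm45604 and the model Gm47862. Because the strand setting of the counting is not given in the sources used here, the counts of Slc16a7 are less certain.

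Slc5a12, the low-affinity sodium-coupled relative, was hardly detected. It had 17 reads over all 12 libraries, 8 of them in aKO astrocytes 222 and 5 in aKO astrocytes 221, and 0 in 6 libraries. The pooled level over the 3 WT astrocyte libraries was 0.00800 CPM, from 1 read, under the 0.0240 CPM that 3 reads would give. It did not pass the count filter in any comparison, and no fold change is given. The libraries 221 and 222, which held 13 of its reads, are those with high Xist.

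Slc16a1 (MCT1) was the most abundant of the 5 transporters in every library. It stood at 38.3, 21.8 and 20.8 CPM in WT astrocytes 201, 202 and 265 and at 50.1, 104.6, 30.5, 49.7 and 20.9 CPM in aKO astrocytes 203, 205, 208, 221 and 222. The groups overlapped, since aKO 222 lay at the level of WT 202 and 265 and aKO 205 lay far above all others. The log2 fold change of 0.73 (SE 0.39) missed the threshold of 0.05 (edgeR quasi-likelihood fit, Benjamini-Hochberg adjusted p = 0.9997). It was 0.45 without aKO 205. In flowthrough Slc16a1 was nearly level, at 13.5 and 23.1 CPM in WT and 20.7 and 17.6 CPM in aKO.

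Slc16a7 (MCT2), the carrier of neurons, stood at 2.49, 1.44 and 1.24 CPM in WT astrocytes 201, 202 and 265. In aKO astrocytes it stood at 1.93, 3.70, 1.78, 4.41 and 0.870 CPM in animals 203, 205, 208, 221 and 222. The WT values lay inside the aKO range. The log2 fold change was 0.39 (SE 0.50; edgeR adjusted p = 0.9997). The 4 flowthrough libraries, at 2.70, 2.35, 1.62 and 3.27 CPM, lay inside the span of the astrocyte libraries.

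Slc16a3 (MCT4) was low in astrocytes of both genotypes. Its WT values were 0.622, 0.213 and 0.522 CPM in animals 201, 202 and 265. Its aKO values were 0.321, 0.978, 0.574, 1.41 and 0.304 CPM in animals 203, 205, 208, 221 and 222. The groups overlapped, and the log2 fold change of 0.51 (SE 0.70) did not pass (edgeR adjusted p = 0.9997). These levels rest on 7 to 47 reads a library.

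Bsg, the basigin partner of MCT1 and MCT4, varied most in absolute level between astrocyte libraries. It stood at 368.5, 57.8 and 253.0 CPM in WT astrocytes 201, 202 and 265. In aKO astrocytes 203, 205, 208, 221 and 222 it stood at 424.9, 1160, 190.3, 771.3 and 154.5 CPM. The 3 highest libraries were aKO and the lowest was WT 202, but aKO 208 and 222 lay below WT 201 and 265. The log2 fold change was 1.05 (SE 0.64; edgeR adjusted p = 0.9997). It was 0.61 without WT 202 and 0.39 with that library counted as aKO.

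As a list, and leaving out Slc5a8 because its place rests on these values, the 4 other members that passed the count filter all had estimates above 0 in aKO astrocytes, with a median log2 fold change of 0.62. Over all 18950 genes the median was 0.02 and 53.0% of the estimates lay above 0. The whole list was drawn up with the CPM of these libraries in view, so nothing is read from this shared direction, here or in flowthrough. By edgeR, 5 genes (0.0264%) were called over the whole table, 4 higher (0.0211%) and 1 lower (0.00528%). None of Slc5a8, Slc16a1, Slc16a3, Slc16a7 and Bsg was among them. DESeq2 called 15 genes (0.0792%), without Slc16a1, Slc16a7 and Bsg, and gave no adjusted p for Slc16a3. For Slc5a8, as a description, DESeq2 gave a log2 fold change of 2.91 (SE 0.53). Whether it is among the 15 is not reported here, so edgeR's result is not the whole account of Slc5a8. In flowthrough the same 4 estimates also lay above 0, with a median of 0.57 against 0.07 over 20637 genes. EdgeR called 0 genes there (0%), with 817 at an unadjusted p under 0.05, and DESeq2 also called 0. Animals 201, 202, 203 and 205 enter both comparisons.

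**Figure D2:**
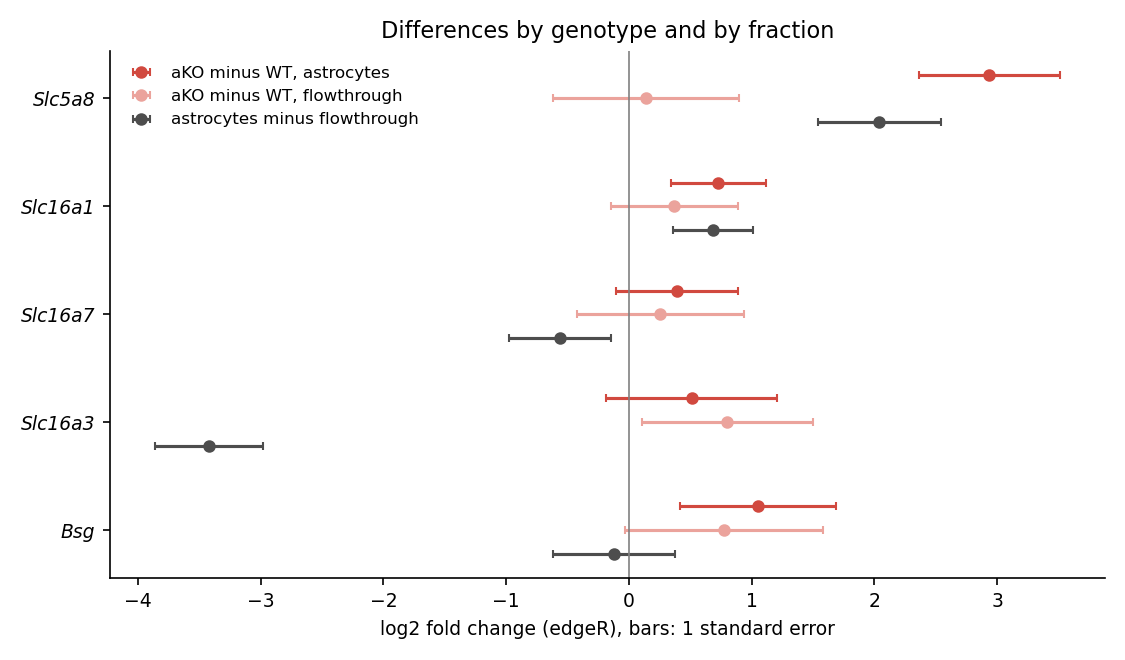
Log2 fold changes (horizontal axis) of the 5 members that passed the count filter, for aKO minus WT in astrocytes, aKO minus WT in flowthrough, and astrocytes minus flowthrough. Points are edgeR estimates and bars 1 SE. Slc5a8 has 2.93 in astrocytes and 0.14 in flowthrough, and Slc16a3 has -3.42 between the fractions.

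Markers of other cell types were measured in the same libraries, with overlapping sums in WT and aKO. All 9 oligodendrocyte markers had estimates above 0 in aKO astrocytes, with summed levels of 3555 to 12660 CPM in WT and 3691 to 22792 CPM in aKO. All 9 endothelial markers lay above 0, at 342 to 718 and 529 to 1056 CPM. All 10 choroid plexus markers lay below 0, at 12348 to 172399 CPM in WT and 17436 to 107364 CPM in aKO, and so did all 8 ependymal markers. None of these genes was at 0 in an astrocyte library, and none passed edgeR's test. Retinal pigment epithelium markers summed to 29.5 to 52.6 CPM in WT and 16.3 to 47.8 CPM in aKO, with 4 of the 7 tested above 0 and 3 below. Only 1 of the 7, Rpe65, was called lower, where 0.00528% of all genes were. It stood at 10.9 to 19.8 CPM in WT and 0.174 to 2.10 CPM in aKO astrocytes. Pineal markers summed to 13.7 to 47.8 CPM in WT and 11.8 to 201.7 CPM in aKO, with 5 of the 6 tested above 0 and none called. The part of these cells in the levels of Slc5a8, Slc16a1 and Bsg was not tested.

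**Figure D3:**
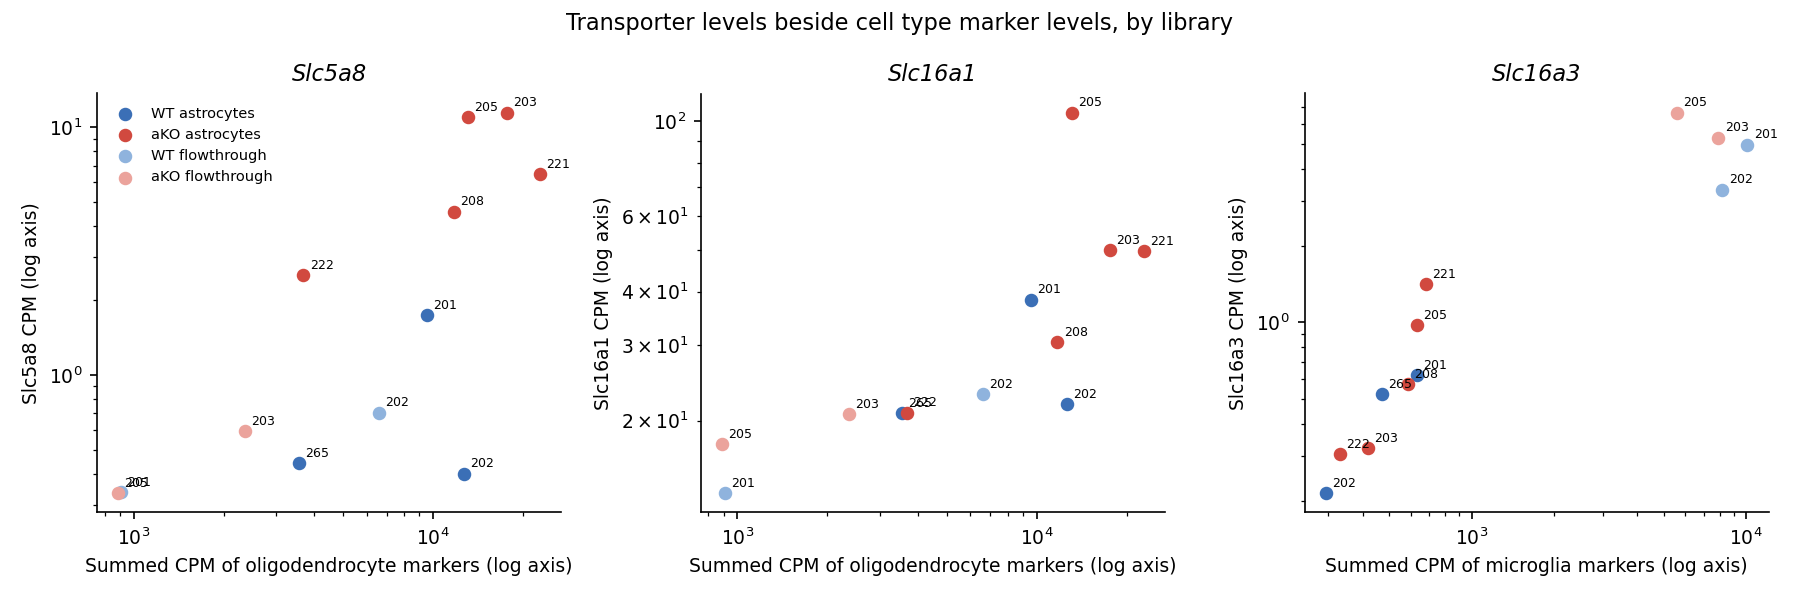
CPM of Slc5a8, Slc16a1 and Slc16a3 (vertical, log axes) against the summed CPM of 9 oligodendrocyte or 9 microglial markers (horizontal, log axes). Points are the 12 libraries, labelled with the animal number. Oligodendrocyte markers sum to 3555 to 12660 CPM in WT astrocytes and 3691 to 22792 CPM in aKO astrocytes, and the flowthrough libraries hold the most microglial markers and Slc16a3.

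Between the fractions, Slc16a3 was lower in astrocytes than in flowthrough. Its flowthrough values were 4.99 and 3.32 CPM in WT 201 and 202 and 5.31 and 6.66 CPM in aKO 203 and 205, against at most 1.41 CPM in any astrocyte library. No library of either fraction reached the other, as was so for 4.51% of all genes tested in this direction, 6.34% in the other and 10.9% in either. The astrocyte mean was 0.618 ± 0.400 CPM (SD, n = 8). The flowthrough mean was 5.07 ± 1.37 CPM (SD, n = 4). The log2 fold change was -3.42 (SE 0.44; edgeR quasi-likelihood test, Benjamini-Hochberg adjusted p = 5.1e-05). Within the 4 brains that gave both, the flowthrough exceeded the astrocytes 8.02-, 15.6-, 16.5- and 6.81-fold in animals 201, 202, 203 and 205. In this comparison 17% of 20637 genes were called, 1758 higher (8.52%) and 1759 lower (8.52%) in astrocytes. Scaled by library totals alone, which moves the median of all genes from 0.07 to 0.34, these were 2288 and 1323, and Slc16a3 kept its call.

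Microglial and leukocyte markers moved the same way as Slc16a3. All 9 microglial markers were called lower in astrocytes, with summed levels of 293 to 680 CPM against 5607 to 10111 CPM in flowthrough. All 8 leukocyte markers and all 7 erythroid markers were also called lower. Their part in the Slc16a3 difference was not tested. Within flowthrough, aKO 203 and 205 had more Slc16a3 than WT 201 and 202, at a log2 fold change of 0.80 (SE 0.70; edgeR adjusted p = 0.804). Bsg also had both aKO flowthrough libraries, at 287.6 and 410.3 CPM, above both WT libraries, at 243.8 and 261.0 CPM (log2 fold change 0.77, SE 0.81; edgeR adjusted p = 0.822). Groups of 2 libraries lay apart in that direction for 12.4% of all genes tested in flowthrough, in the other for 20.3% and in either for 32.7%, so this separation is common.

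Slc16a1 was higher in astrocytes than in flowthrough by 0.69 (SE 0.33) on the log2 scale, which did not pass (edgeR adjusted p = 0.159). In the 4 brains that gave both fractions the astrocyte to flowthrough ratio was 2.83 in WT 201, 0.947 in WT 202, 2.42 in aKO 203 and 5.94 in aKO 205. With the animal as a block on these 8 libraries, the log2 difference was 0.98 (SE 0.31) and passed (edgeR adjusted p = 0.0380). In that fit 29.5% of all genes passed. Without the block, the same libraries gave 0.997 (SE 0.34; edgeR adjusted p = 0.0661). The pairing is that of the animals, and only WT 202 went against the other 3 brains.

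For Bsg and Slc16a7 the difference between fractions did not pass. Bsg averaged 422.5 ± 369.5 CPM in the 8 astrocyte libraries (SD) and 300.6 ± 75.3 CPM in the 4 flowthrough libraries, with a log2 fold change of -0.12 (SE 0.50; edgeR adjusted p = 0.887). Its direction was not stable, since the arithmetic means lie the other way and the sign turned in 4 of 22 alternatives. Slc16a7 averaged 2.23 ± 1.24 and 2.48 ± 0.692 CPM, with a log2 fold change of -0.56 (SE 0.41; edgeR adjusted p = 0.371). For Slc5a8 the mean of both astrocyte groups lay 2.04 (SE 0.50) above flowthrough on the log2 scale, given as a description. Because the aKO libraries make that mean, it hides the low WT values of 0.400 and 0.442 CPM.

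The genotype effect did not differ between fractions past the threshold for any of Slc16a1, Slc16a3, Slc16a7 or Bsg. Subtracting the flowthrough effect from the astrocyte effect gave 0.35 (SE 0.64) for Slc16a1, -0.27 (SE 0.89) for Slc16a3, 0.13 (SE 0.84) for Slc16a7 and 0.29 (SE 0.995) for Bsg on the log2 scale. EdgeR's adjusted p ran from 0.964 to 0.995 for these 4 genes. EdgeR called 0 of 20637 genes (0%), with 499 at an unadjusted p under 0.05, and DESeq2 called 0.

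Levels of different genes were compared per length, as RPKM (CPM per kb of exon). In WT astrocytes the order was Bsg at 125 ± 86.6, Slc16a1 at 6.10 ± 2.22, Slc16a7 at 0.443 ± 0.172, Slc5a8 at 0.162 ± 0.143, Slc16a3 at 0.0851 ± 0.0401 and Slc5a12 near 0 RPKM (SD, n = 3). The neighbours Slc5a8 and Slc16a3 did not differ beyond their spread. In aKO astrocytes Slc5a8 came after Bsg and Slc16a1, at 1.35 ± 0.740 RPKM, ahead of Slc16a7 at 0.652 ± 0.377 RPKM (SD, n = 5), again with overlapping ranges. In flowthrough Slc16a3 came after Bsg and Slc16a1, at 0.953 ± 0.258 RPKM, before Slc16a7 at 0.639 ± 0.178 RPKM (SD, n = 4), and their ranges overlapped. Bsg led every library, with 5.87 to 36.8 times the summed RPKM of the 5 transporters.

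Shares of the summed RPKM of the 5 transporters do not depend on the library's scaling. Slc16a1 made up 90.1% ± 1.13 (SD, n = 3) in WT astrocytes, 83.5% ± 3.09 (SD, n = 5) in aKO astrocytes and 70.9% ± 7.52 (SD, n = 4) in flowthrough. Slc5a8 made up 1.39% to 3.36% in WT astrocytes, 7.71% to 15.4% in aKO astrocytes and 1.02% to 2.02% in flowthrough. These shares use the same Slc5a8 reads as its CPM, so nothing further is read from the aKO astrocytes standing apart here. Slc16a3 made up 0.430% to 1.91% in astrocytes and 9.49% to 20.4% in flowthrough. Slc16a7 held 3.53% to 8.17% in astrocytes and 6.69% to 14.6% in flowthrough.

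**Figure D4:**
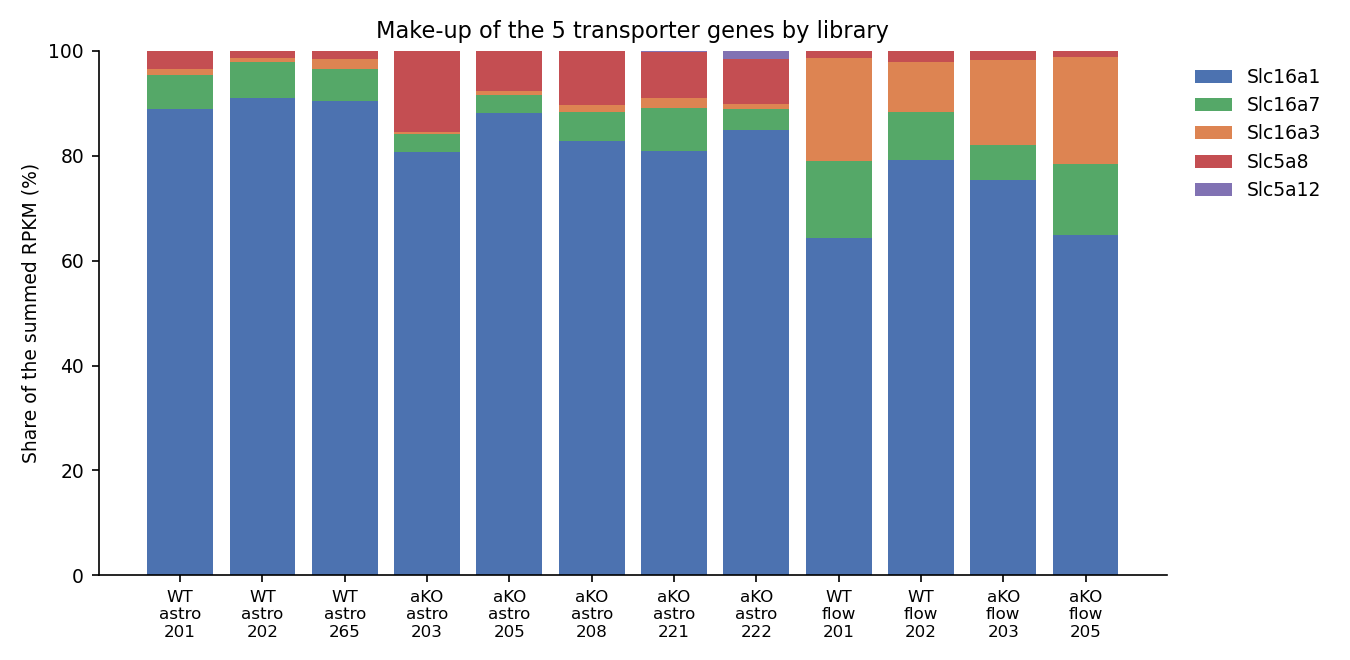
Share of the summed RPKM of 5 transporter genes (vertical axis, percent) in each of the 12 libraries, labelled by genotype, fraction (astro, isolated astrocytes; flow, flowthrough) and animal. Slc16a1 fills most of every bar, Slc5a8 reaches 7.71% to 15.4% in aKO astrocytes, and Slc16a3 reaches 9.49% to 20.4% in flowthrough.

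The other genes of monocarboxylate handling showed no genotype change past edgeR's threshold in either fraction. Of the other 11 SLC16 members, all tested, 4 had estimates above 0 in aKO astrocytes and 7 below, with a median of -0.05. Of 16 genes of lactate and pyruvate metabolism, 7 lay above 0 and 9 below, with a median of -0.07 against 0.02 over all genes. Mpc2, a subunit of the mitochondrial pyruvate carrier, had the smallest p of these 16, with a log2 fold change of 1.0002 (SE 0.44; edgeR adjusted p = 0.9997), and its partner Mpc1 had -0.49 (SE 0.40). Ldha and Ldhb, the lactate dehydrogenase subunits, had 0.02 (SE 0.45) and -0.26 (SE 0.45). Slc16a5 and Slc16a9 of the SLC16 family had 0.79 (SE 0.81) and 0.54 (SE 0.52). Among 6 genes of ketone body metabolism, 2 lay above 0 and 4 below, with -0.42 (SE 0.38) for Bdh2 and -0.38 (SE 0.35) for Bdh1, the ketone body dehydrogenase of mitochondria. Emb and Nptn, relatives of basigin that escort MCTs, had 0.07 (SE 0.55) and -0.05 (SE 0.41). Of 6 tested members of the other 11 SLC5 genes, 4 lay above 0, and Slc5a5 had 0.66 (SE 0.35) and Slc5a1 -0.64 (SE 0.61). The lactate receptor gene Hcar1 had -1.14 (SE 0.87) and Hcar2, the receptor of β-hydroxybutyrate, had 0.36 (SE 0.73).

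In flowthrough the smallest p-values of each of these lists also failed the threshold (edgeR adjusted p = 0.804 or above). Slc5a5 had 1.10 (SE 0.48), Acat1, a thiolase of ketone use, -1.30 (SE 0.62), Hcar2 -1.98 (SE 0.95) and Slc16a4 -1.202 (SE 0.66) on the log2 scale. Of the 16 lactate and pyruvate genes, 4 lay above 0 and 12 below, and of the 6 ketone genes 1 and 5. Astrocyte markers, by the same fit, lay below 0 in flowthrough for 12 of 12 genes, at summed levels of 499 and 5201 CPM in WT and 247 and 1436 CPM in aKO. Their part in these estimates was not tested.

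Between the fractions, 4 of the 16 lactate and pyruvate genes were higher in astrocytes and 0 lower, with a median log2 fold change of 0.68 against 0.07 over all genes. Among all genes tested, 8.52% were called higher and 8.52% lower. Of the cell type markers, 10 of 12 for astrocytes, 7 of 9 for oligodendrocytes and 5 of 10 for neurons were also called higher in astrocytes, and their part in these differences was not tested. Pdk4, a kinase that switches off pyruvate dehydrogenase, rose by 1.44 (SE 0.33; edgeR adjusted p = 0.00665), from 3.54 ± 0.717 CPM (SD, n = 4) in flowthrough to 12.1 ± 5.19 CPM (SD, n = 8) in astrocytes. Pdp1, the phosphatase that switches it on, rose by 1.56 (SE 0.44; edgeR adjusted p = 0.0232). Ldhd, the D-lactate dehydrogenase, rose by 1.71 (SE 0.52; edgeR adjusted p = 0.0333) and Pcx, pyruvate carboxylase, by 1.30 (SE 0.42; edgeR adjusted p = 0.0450). Ldhb, at 1594 ± 355 CPM in astrocytes and 1542 ± 796 CPM in flowthrough, had -0.10 (SE 0.43). With the animal as a block, 8 of the 16 were higher and 0 lower, and Pdha1, Pdk2, Dld and Pdp2 were among the 8. In that fit 3206 of 20189 genes were called higher and 2745 lower, 29.5% in either direction. Ldhd lost its call (edgeR adjusted p from 0.0504 to 0.162) and so did Pcx (0.0635 to 0.220) without any of astrocyte WT 201 or 202, astrocyte aKO 203, 205 or 221, flowthrough WT 201 or flowthrough aKO 203 or 205. Pcx was also lost with DESeq2's size factors (0.0512) and with library 202 as aKO (0.0771). Pdp1 was lost without astrocyte WT 202 (edgeR adjusted p = 0.0630), flowthrough WT 201 (0.124) or flowthrough aKO 205 (0.107), and Pdk4 without flowthrough WT 201 (0.0561).

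In the transporter families, Slc16a10, an aromatic amino acid and thyroid hormone carrier, fell by 2.24 on the log2 scale in astrocytes (SE 0.53; edgeR adjusted p = 0.00793). Slc5a10, a sugar carrier of the kidney, fell by 3.42 (SE 0.71; edgeR adjusted p = 0.00351). Slc5a11, a sodium-coupled inositol carrier, rose by 3.06 (SE 0.75; edgeR adjusted p = 0.0100). Slc16a10 was lost without flowthrough WT 201 (edgeR adjusted p = 0.0563) or flowthrough aKO 205 (0.111), and Slc5a11 without flowthrough aKO 205 (0.0561). No other tested member of the 11 SLC16 and 11 SLC5 genes passed. With the animal as a block, Slc16a8, the MCT3 carrier known from retinal pigment epithelium and choroid plexus, was also lower in astrocytes, by -1.40 (SE 0.40; edgeR adjusted p = 0.0246). Without the block it had -0.86 (SE 0.60). No ketone gene, basigin relative or receptor passed without the block. With it, Bdh1 was among those that passed, higher in astrocytes by 0.84 (SE 0.29; edgeR adjusted p = 0.0497). The receptor genes Hcar2 and Ffar2 were lower with the block, at -1.85 (SE 0.56; edgeR adjusted p = 0.0324) and -3.96 (SE 0.90; edgeR adjusted p = 0.00909). Over all 20189 genes, the fit with the block called 3206 higher and 2745 lower.

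The genes whose profile lay closest to that of each member were ranked by Pearson's r of log2(CPM + 0.5) over the 12 libraries, among 13873 genes with a mean of at least 1 CPM. This is a description, and the libraries share depth, fraction and cell makeup. Genes picked this way follow the group pattern of their member by construction, so nothing is read from their own group means. For Slc5a8 these were Ube2d1, a ubiquitin-conjugating enzyme (r = 0.945), the phosphate transporter gene Slc20a2 (0.934), Pla2g3, a secreted phospholipase (0.934), Pfkfb3, which drives glycolysis (0.926), and Catsper2, a sperm channel subunit (0.918). Slc20a2 averaged 28.5 CPM in WT and 100.3 CPM in aKO astrocytes and 18.0 CPM in flowthrough. Among the members, Slc16a1 was closest to Slc5a8 (0.875), then Bsg (0.567), Slc16a7 (0.281) and Slc16a3 (-0.477).

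For Slc16a3 the nearest genes were Ppp1r18 (0.989), the microglial marker Tmem119 (0.986) and Psd4 (0.985), all higher in flowthrough. Tmem119 averaged 8.56 CPM in WT and 11.3 CPM in aKO astrocytes and 300.7 CPM in flowthrough. For Slc16a1 they were C2cd5 (0.977), Tspan9 (0.963) and Itga7 (0.960), for Bsg Slc25a24 (0.967), Pcp4l1 (0.957) and Sharpin (0.956), and for Slc16a7 Ncoa3 (0.938), Fam53b (0.935) and Coro1c (0.933). For Slc5a12, whose profile rests on 17 reads, they were Hmgb1-ps6 (0.884), Xist (0.861) and Dkk2 (0.847).

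The estimate for Slc5a8 in astrocytes stayed above 0 in all 17 alternatives, from 2.40 with library 202 counted as aKO to 3.77 without WT 201. Slc5a8 was chosen from these libraries, and by CPM every aKO value lay above every WT value. Leaving out libraries could hardly turn that sign, so nothing is read from its staying above 0. WT 201 is the WT library with the most Slc5a8, and without it the fold change grew by more than 1.5 times. The estimates of Slc16a1, Slc16a3, Slc16a7 and Bsg also stayed above 0 in these alternatives, but those of Slc16a3 and Slc16a7 came down to 0.04 and 0.08.

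**Figure D5:**
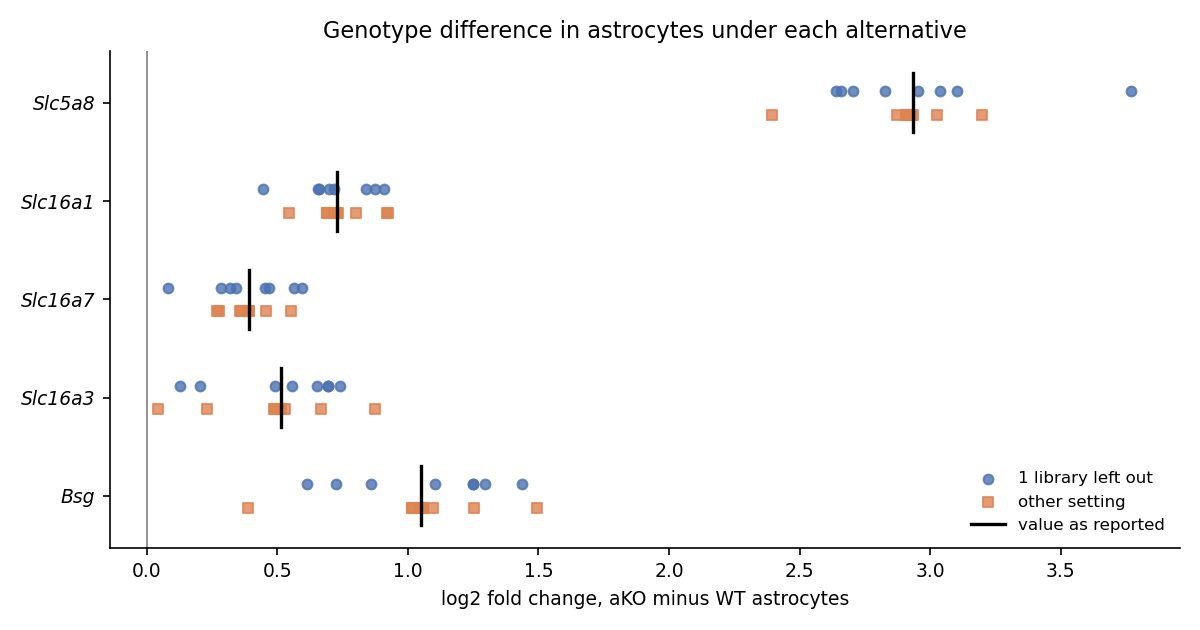
Log2 fold change of aKO minus WT astrocytes (horizontal axis) for 5 members under each alternative. Circles leave out 1 library, squares are other settings and vertical lines the values as reported. Slc5a8 ranges from 2.40 to 3.77, and the other 4 genes lie between 0.04 and 1.49.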

How the data were processed

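The authors deposited, per library and Ensembl gene, the read count, CPM (count scaled to the library total) and RPKM (CPM per kb of exon). The submitters' processing notes name GRCm38, featureCounts 1.4.6-p5, Subread, STAR 2.5.1a and bcl2fastq, with no roles. The annotation release, strand setting and treatment of multiply matching reads are not given in the sources used here. The deposited CPM equalled count over total, and RPKM was used as deposited for levels between genes. Deposited counts were tested.

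Symbols were found for 40254 of 41388 identifiers. The test was edgeR 4.0.16's quasi-likelihood test in R 4.3.3, with robust dispersion, TMM, filterByExpr (minimum count 10, total 15) and two-sided p-values Benjamini-Hochberg adjusted over all genes tested (threshold 0.05). The astrocyte comparison used 8 libraries; the other comparisons used a fit of 4 groups to all 12 libraries, which shares 1 estimate of the spread. Scripts were tested on simulated data. Alternatives were other scalings, no count filter, DESeq2 1.42.0, left-out libraries, library 202 as aKO and an animal block. Same-numbered fractions come from the same animal; their deviations from group means correlated with r of 0.0823, 0.424, 0.166 and 0.404 for animals 201, 202, 203 and 205.

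Members, gene lists and tests were chosen with earlier results of these data known. Named genes were the 6 members; pathway list genes past the threshold, up to 6 per list and comparison, or the 2 with the smallest p where none passed; and the 5 genes most like Slc5a8 and 3 most like each other member. Predicted gene models were left out of the last. Where a single flowthrough library remains in a group, its spread is assumed to equal that of the other groups. Animals are the replicates. Some results of the pathway lists are not reported here.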

Additional observations from a re-analysis of the deposited data

Results flagged for a closer look

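By CPM, scaled to library totals, Slc16a7 was lower in astrocytes than in flowthrough in both WT brains and higher in both aKO brains. The astrocyte to flowthrough ratio was 0.923 and 0.612 in WT 201 and 202 and 1.19 and 1.13 in aKO 203 and 205. The difference between the genotype effects over all 12 libraries was 0.13 (SE 0.84) on the log2 scale and did not pass (edgeR quasi-likelihood test, Benjamini-Hochberg adjusted p = 0.995). The ratios lie close to 1 and depend on the scaling: the fraction difference over all libraries was -0.56 with TMM and -0.24 with library totals alone. No explanation was tested. Outlying values were looked for only in aKO astrocytes, by the gap to the nearest value over the range of the group (Dixon's ratio). No member value passed the cutoff of 0.71, and the closest was the highest Slc16a1 value, in aKO 205, at 0.652.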

How the results depend on the processing

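The number of members called among Slc16a1, Slc16a3, Slc16a7 and Bsg was 0 for both genotype comparisons and for their difference in every alternative, and 1 between the fractions (Slc16a3) in every alternative except the animal as a replicate block, which gave 2 (Slc16a1 with 0.98 on the log2 scale); the block changed no other call of a member. With each replicate left out, Slc5a8 in astrocytes ran from 2.64 to 3.77. In flowthrough, aKO minus WT, Slc5a8 turned to -0.15 with library totals alone and -0.0096 in the flowthrough libraries only, and ran from -0.30 to 0.63 with each replicate left out; Slc16a7 turned to -0.051 with totals alone and ran from -0.54 to 0.70. Between the fractions, Bsg turned to 0.24 with totals alone and 0.027 in the 8 libraries of 4 animals without a block, and ran from -0.31 to 0.10 with each replicate left out. For the difference of genotype effects, Slc16a3 turned to 0.15 with totals alone and 0.062 without aKO 222 and WT 265 and ran from -0.67 to 0.089 with each replicate left out, Slc16a7 ran from -0.31 to 0.93, and Bsg turned to -0.37 with library 202 as aKO and ran from -0.15 to 0.77. The cause was not tested. With library 202 as aKO only the astrocyte library was moved, so animal 202 then counts as aKO in astrocytes and WT in flowthrough. Over all genes, 5 were called in astrocytes, against 0 to 15 in the alternatives (0 without WT 201 or with library 202 as aKO, 1 in a fit of all 12 libraries, 2 without aKO 205, 3 without WT 265, 3 without aKO 222 and WT 265, 8 without the filter). In flowthrough 0 were called, against 45 without the filter and 1 without flowthrough WT 201. Between fractions 3517 were called, against 1691 without flowthrough WT 201, 2136 without flowthrough aKO 205 and 5951 with the block. For the difference, 0 were called, against 40 without the filter, 1 with the block, 1 in the same 8 libraries without it and 1 without aKO 221 and 222. Depth limits Slc5a12 and, in astrocytes, Slc16a3.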
